A study of Mus musculus with 9 samples.

Results

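*Norad* is a long noncoding RNA (lncRNA) that accumulates in the cytoplasm and carries many copies of the short element that Pumilio proteins recognize. Pumilio proteins such as PUM2 bind that element in the 3′ ends of mRNAs and recruit the CCR4-NOT deadenylase, which shortens the poly(A) tail and lowers mRNA stability and translation. By holding Pumilio proteins, *Norad* limits how much of them is free to act on other mRNAs, and loss of this control is linked to chromosome instability and premature ageing in mice. In neurons, Pumilio proteins are known for regulating dendritic mRNAs and the mRNAs of ion channels.

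The RNA level of *Norad* and of *Pum2*, which encodes a protein that binds it, was followed in an RNA immunoprecipitation (RIP) of the RNA-binding protein CELF2. These 2 genes are represented by 22 transcript rows in the deposited table, and they belong to 18784 genes that had at least 0.5 CPM (counts scaled to the size of the library) in at least 3 libraries. *Norad* was picked because it stood out in the CELF2 RIP of these same libraries, so its difference from either control is given as a description, without a test. *Pum2* was included through the family and was tested. All 9 libraries came from the cytoplasmic fraction of cortices of mice at postnatal day 0 that carried the CELF2 p.R493H knock-in (KI) allele in heterozygous form, in which 1 wild-type copy of *Celf2* remains. No wild-type mice were included in the libraries analysed here, and protein from the mutant and wild-type copies could not be told apart by the antibody. RNA was recovered with 10 µg of an antibody against CELF2 (the CELF2-KI RIP, written CELF2 RIP below, n = 3) or of normal rabbit IgG (IgG RIP, n = 3) during an incubation of 3 h, and untreated lysate served as input (n = 3). The methods call the 3 libraries of each group biological replicates, but whether a library pooled several cortices is not given in the sources used here.

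The libraries held 15919600 to 20052716 estimated counts in CELF2 RIP, 17365561 to 28773130 in IgG RIP and 69125700 to 105116427 in input. In IgG RIP, 21.1% to 43.5% of the counts lay on transcripts that could not be matched to a gene, against 11.6% to 12.6% in CELF2 RIP and 9.24% to 9.75% in input. Levels are therefore given as CPM of protein-coding counts, scaled by the trimmed mean of M values (TMM). Markers of several cell types were checked. The 6 markers of excitatory neurons summed to 909 to 1077 CPM in input, to 852 to 983 CPM in IgG RIP and to 1568 to 2180 CPM in CELF2 RIP, and none was at 0 in all input libraries. The 3 erythroid markers moved the other way, from 650 to 833 CPM in input and 263 to 414 CPM in IgG RIP to 58.9 to 67.5 CPM in CELF2 RIP. The 4 markers of radial glia summed to 307 to 363 CPM in input, 218 to 269 CPM in IgG RIP and 102 to 181 CPM in CELF2 RIP. Most of this sum came from *Fabp7*, with means of 221, 161 and 60.9 CPM in input, IgG RIP and CELF2 RIP. *Sox2* was also lower (log2 fold change -0.70 over IgG RIP and -1.18 over input). *Hes5* (-0.09 and -0.31) and *Pax6* (0.16 and 0.02) moved less and were not called. The 4 microglial markers summed to 52.7 to 71.5 CPM in input, 32.7 to 42.0 CPM in IgG RIP and 81.1 to 111 CPM in CELF2 RIP, almost wholly from *Cx3cr1*, while *Aif1* was lower than in input (log2 fold change -3.06, edgeR FDR 0.00173) and *Csf1r* was at 0 in every input library. The part of these shifts in the results below was not tested.

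Transcripts of *Norad* were recovered at higher levels by the CELF2 antibody than by IgG in every replicate. The gene (ID 347740) spans chr2:156388063-156392979 in GRCm38.p6, has a single row in the table (NR_024329.1), and overlaps the lncRNA *Gm14170*, which had at most 13.7 counts in any library. In CELF2 RIP, *Norad* reached 1603, 2823 and 1888 CPM. In IgG RIP it reached 501, 509 and 554 CPM, and in input 465, 496 and 458 CPM. All 3 CELF2 RIP libraries lay above all 6 controls, the lowest of them 2.90 times the highest control, and replicate 2 stood above the other CELF2 RIP libraries.

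The group means for *Norad* were 473 CPM ± 20.1 (SD, n = 3) for input, 521 CPM ± 28.5 for IgG RIP and 2105 CPM ± 638 for CELF2 RIP. *Norad* was thus 4.04-fold higher than in IgG RIP (log2 fold change 2.01) and 4.45-fold higher than in input (log2 fold change 2.15). Without CELF2 RIP replicate 2 the log2 fold changes were 1.74 and 1.88. The controls rested on 5138 to 8005 counts in IgG RIP and 28335 to 45025 in input, so counting error was small beside the spread between replicates. In the level of *Norad* in input, a portion of bulk lysate, the number of cells that contain it and its RNA per cell cannot be told apart.

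**Figure D1:**
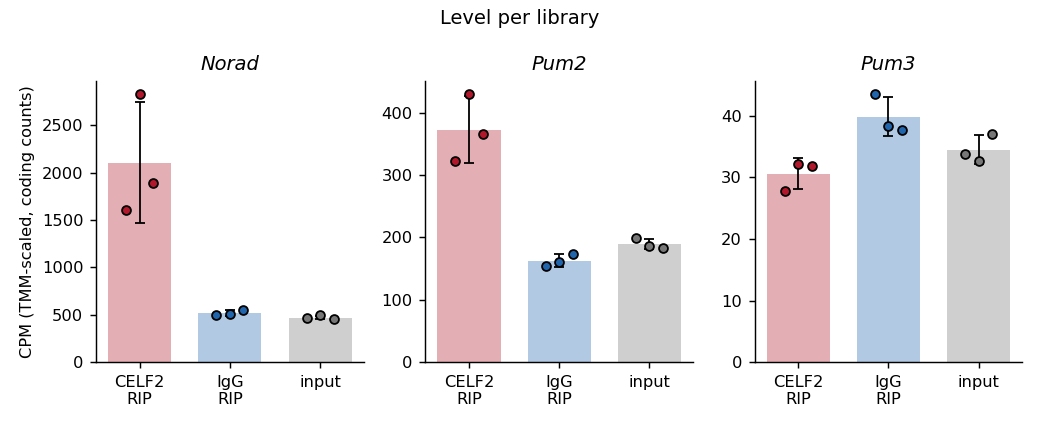
Level of *Norad*, *Pum2* and *Pum3* in each library (y axis, CPM of protein-coding counts after TMM scaling; each panel has its own axis from 0), with bars at the mean of 3 libraries, error bars of 1 SD and points for replicates 1 to 3 from left to right. *Norad* sits at 1603 to 2823 CPM in CELF2 RIP against at most 554 CPM in the controls, and *Pum2* also lies above all controls, whereas *Pum3* does not.

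The background for this pattern was uneven between gene classes. Of all genes tested, 11.1% were called higher in CELF2 RIP than in IgG RIP (false discovery rate, FDR, below 0.01 and at least 2-fold), 16.7% were called higher than in input, and 6.3% were called higher than both. Among 3517 noncoding genes the shares were 1.34%, 25.9% and 0.881%. The 3 CELF2 RIP libraries lay above all 6 controls for 21.2% of all genes and for 3.92% of noncoding genes. As *Norad* was chosen on this contrast, nothing is read from its place among them.

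Among the 37 noncoding genes with a mean of at least 100 CPM, others with high values over IgG RIP were *H19* (1.73), *Tug1* (1.40) and *Peg13* (1.31). *Malat1*, a nuclear lncRNA counted at a higher CPM than *Norad* in every library, had log2 fold changes of -0.04 over IgG RIP and 0.50 over input. Its mean in input was 3129 CPM, so the fraction described as cytoplasmic also held RNA known as nuclear. The purity of the fraction was not tested.

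**Figure D2:**
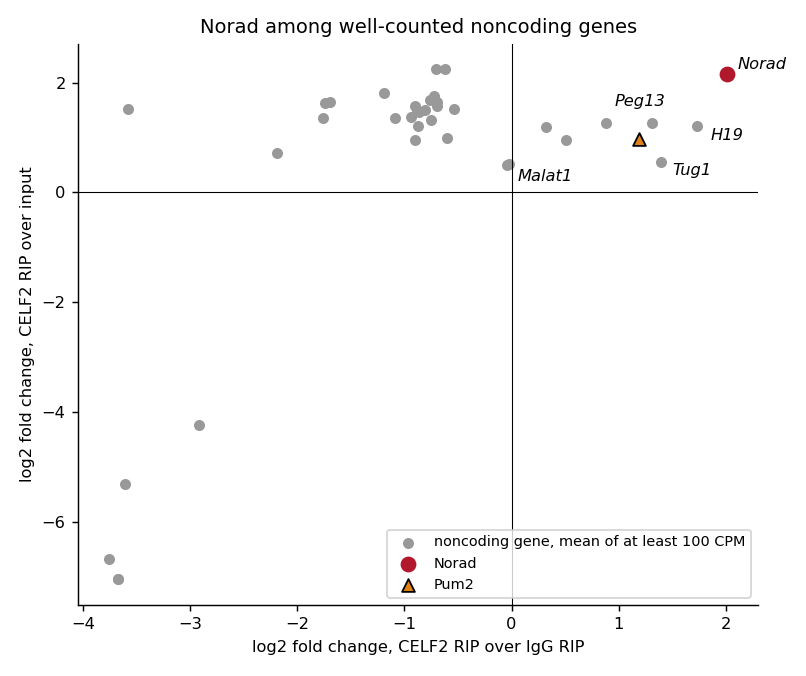
Log2 fold change of CELF2 RIP over IgG RIP (x axis) and over input (y axis) for the 37 noncoding genes with a mean of at least 100 CPM (points), with *Pum2* (triangle) added. *Norad* lies at 2.01 and 2.15 in the upper right corner, while most noncoding genes lie above 0 over input and below 0 over IgG RIP.

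The comparison of both controls was not the contrast that chose *Norad*, and it was tested. Its libraries were the controls in that choice, however, so its values and ranks for *Norad* are not independent of the choice. Of the noncoding genes, 42.5% were called higher in IgG RIP than in input, against 13.7% of all genes, of which a further 4.29% were called lower, and the median log2 fold change of noncoding genes was 1.62. *Norad* differed from input by a log2 fold change of 0.14 (SE 0.18, edgeR quasi-likelihood test, FDR 0.553), and 3112 of the 3517 noncoding genes had a larger value. As a share of all noncoding counts, *Norad* made up 0.295% to 0.449% in input, 0.615% to 0.934% in IgG RIP and 4.66% to 5.40% in CELF2 RIP. The denominator fell as well: noncoding counts came to 11.8% to 19.5% of protein-coding counts in input, 6.22% to 8.69% in IgG RIP and 3.02% to 4.03% in CELF2 RIP, so these shares moved more than the CPM of *Norad* did. Most noncoding counts in input lay on 2 genes, *Rn7s1* and *Rn7s2*, while the median noncoding gene was higher in IgG RIP. Each of the 2 had 32220 to 61242 CPM in input, 3091 to 4889 CPM in IgG RIP and 179 to 441 CPM in CELF2 RIP.

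The mRNA of PUM2 was also recovered with the CELF2 antibody. *Pum2* (ID 80913, chr12:8674092-8752583) was measured at 322, 429 and 366 CPM in CELF2 RIP. The IgG RIP libraries had 154, 160.5 and 174 CPM, and the input libraries had 199, 186 and 184 CPM. All CELF2 RIP libraries lay above all controls, as they did for 25.2% of protein-coding genes, and the lowest was 1.62 times the highest control. The means were 372 CPM ± 53.6, 163 CPM ± 10.2 and 189.6 CPM ± 8.16 (SD, n = 3 each). *Pum2* rose 2.29-fold over IgG RIP (log2 fold change 1.19, SE 0.12, edgeR FDR 3.17e-05). Over input the difference was 1.96-fold (log2 fold change 0.97, SE 0.12, edgeR FDR 8.36e-05), just under the 2-fold minimum, so *Pum2* was not called against both controls. Tested against 2-fold itself (glmTreat in edgeR), it was called over neither control (FDR 0.132 and 0.692). Of protein-coding genes, 13.3% were called higher over IgG RIP, 14.5% over input and 7.55% over both. The difference between IgG RIP and input did not pass the test (log2 fold change -0.22, SE 0.12, edgeR FDR 0.158).

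Whether *Pum2* reached 2-fold depended on the scaling, because it lay close to that minimum. Across 5 scalings its log2 fold change over IgG RIP ranged from 0.88 to 1.19 and fell below 1 with TMM over all genes, with total counts and with upper quartile factors, and over input it ranged from 0.58 to 0.97. The median of all genes moved with it, from -0.45 to -0.14 over IgG RIP and from 0.00 to 0.39 over input, and relative to that median *Pum2* stayed at 1.32 to 1.33 over IgG RIP and at 0.57 to 0.58 over input. Genes with a mean of at least 100 CPM, as *Pum2* has, had higher medians in the main fit, 0.55 over IgG RIP and 0.73 over input. Of these 2355 genes, 520 had a larger log2 fold change than *Pum2* over IgG RIP and 824 over input. Over input *Pum2* was called without CELF2 RIP replicate 1 (1.07) or without input replicate 1 (1.0).

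A divergent relative, *Pum3*, encodes a nucleolar protein that does not act on Pumilio elements in mRNAs. Its levels were 33.7, 32.6 and 37.1 CPM in input, 43.5, 38.3 and 37.8 CPM with IgG and 27.8, 32.2 and 31.9 CPM with the CELF2 antibody. It was not called in any comparison (log2 fold change over IgG RIP -0.38, SE 0.13, edgeR FDR 0.0315, and over input -0.17, SE 0.13, edgeR FDR 0.265).

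Ratios within a library do not depend on the scaling of that library. The ratio of *Norad* counts to *Pum2* counts was 2.34, 2.66 and 2.50 in input, 3.25, 3.17 and 3.18 with IgG and 4.97, 6.58 and 5.16 with the CELF2 antibody. With all rows, CELF2 RIP and the controls did not overlap, and the log2 differences were 0.79 over IgG RIP and 1.15 over input, given without a test since *Norad* was chosen on these values. IgG RIP also lay above input in every library (log2 difference 0.36, two-sided exact permutation test p = 0.1, the smallest that 3 against 3 libraries allow). With the curated rows of *Pum2* alone, the ratio was 4.81, 5.12 and 4.46 in input and 8.73, 11.8 and 10.8 with the CELF2 antibody. With IgG it was 7.50, 6.80 and 23.9, so CELF2 RIP and IgG RIP then overlapped and their log2 difference was -0.044 (0.54 without IgG RIP replicate 3).

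**Figure D3:**
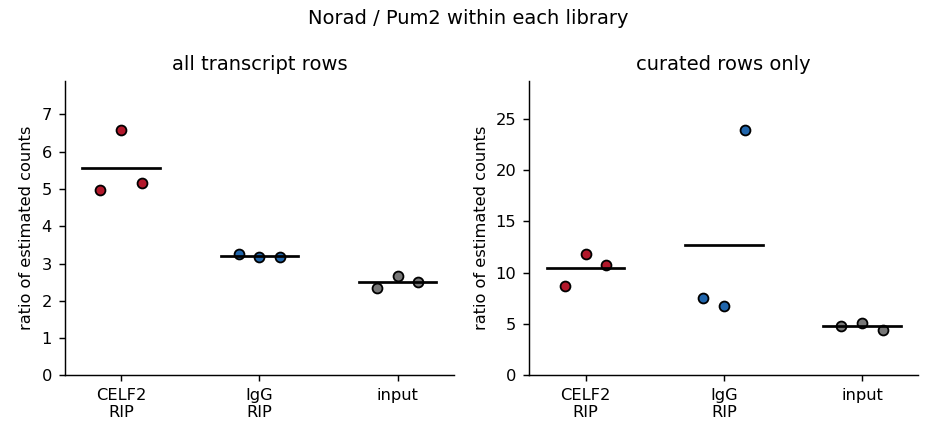
Ratio of *Norad* to *Pum2* estimated counts within each library (y axes, from 0), with all transcript rows (left) and with curated rows only (right), with points for the 3 libraries of each group and a line at their mean. The left ratio is 4.97 to 6.58 in CELF2 RIP and at most 3.25 in the controls, and on the right IgG RIP replicate 3 lies above all other libraries at 23.9.

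*Pum2* is annotated with many transcripts, 21 rows in the table (7 curated and 14 predicted). Estimated counts were spread unevenly over these rows, with 15 rows under 0.001 CPM in at least 1 library. Of the 12 rows that passed the filter, none was called in edgeR in any comparison, beside 4.31% of all 43027 rows called higher and 2.33% called lower over IgG RIP, 3.56% and 2.9% over input, and 1.75% and 1.02% for IgG RIP over input. At an unadjusted p under 0.05 (edgeR), the comparison with IgG RIP held 3 *Pum2* rows, the comparison with input held 2 and that between the controls held 5. The share of all rows under this cut was not computed, so nothing is read from these counts. At the level of genes, 10203, 11946 and 9928 of 18784 were under it in these comparisons. Without IgG RIP replicate 3, 1 row was called over IgG RIP and 2 over input.

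The most counted row was the noncoding transcript NR_027670.1, with 27.2%, 25.2% and 24.9% of the *Pum2* counts in CELF2 RIP, 15.3%, 21.4% and 1.51% with IgG and 21.1%, 25.3% and 23.6% for input. IgG RIP replicate 3 thus stood apart from the other libraries. CELF2 RIP exceeded IgG RIP by 13.0 points (two-sided exact permutation test p = 0.1), and by 7.43 points without that replicate. The level of this row was 87.8, 108 and 91.0 CPM in CELF2 RIP, 23.5, 34.4 and 2.63 CPM with IgG and 41.9, 47.1 and 43.3 CPM in input.

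The curated rows of *Pum2* were also summed. They made up 53.5% ± 4.87 (SD, n = 3) of its counts in CELF2 RIP, 52.2% ± 3.64 in input and 34.4% ± 18.4 in IgG RIP, where replicate 3 was at 13.3%. The difference of 19.1 points between CELF2 RIP and IgG RIP had the smallest p that the exact permutation test allows, 0.1, and fell to 8.51 points without IgG RIP replicate 3. CELF2 RIP and input differed by 1.32 points (p = 0.8, exact permutation test), a difference that turned to -0.42 and -0.46 points without CELF2 RIP replicate 1 and input replicate 1.

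One curated *Pum2* row, NM_030723.2, named after its values were seen, had 260.1, 529 and 540.1 counts in input and under 0.01 counts in every RIP library. Against a floor of 3 counts in each library it was at least 25.3-fold lower in CELF2 RIP and at least 26.7-fold lower in IgG RIP, but its FDR (edgeR, 0.0151 and 0.021) missed the threshold in both comparisons. Since near-identical rows of 1 gene share most reads, these splits are uncertain where the sums over a gene are not.

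**Figure D4:**
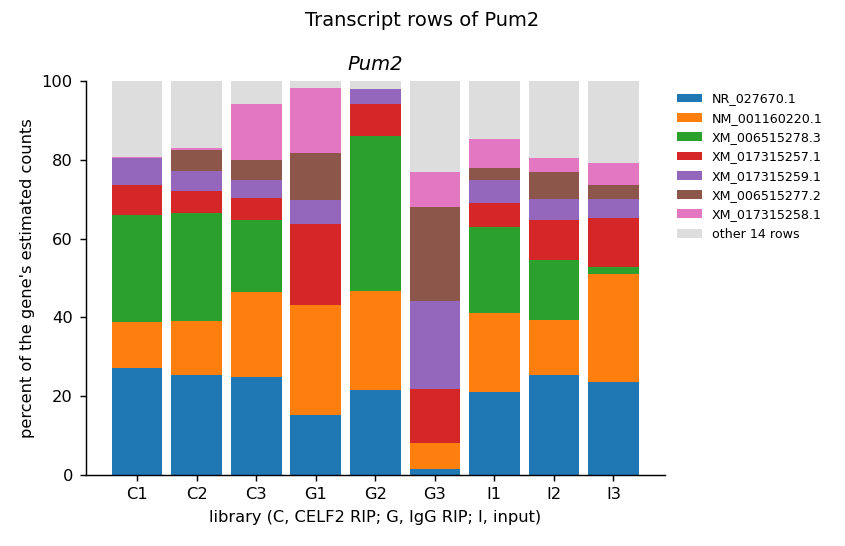
Share of the estimated counts of *Pum2* on each of the 7 rows with the highest mean share and on all other rows (y axis, percent), for each library (x axis: C, CELF2 RIP; G, IgG RIP; I, input). NR_027670.1 holds 21.1% to 27.2% in CELF2 RIP and input libraries, and IgG RIP replicate 3 holds 1.51%.

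Of 6 known Pumilio target mRNAs, 3 were called higher over IgG RIP, 3 over input (2 with the replicate block) and 1 over both, where 11.1%, 16.7% and 6.3% of all genes were. All 6 had log2 fold changes above 0 in both comparisons, and their medians were 0.97 and 0.87 beside -0.14 and 0.39 for all genes and 0.55 and 0.73 for genes with a mean of at least 100 CPM. *Mapk14*, which encodes the stress kinase p38α, had 50.1 CPM ± 4.32 in input, 51.8 CPM ± 4.55 with IgG and 181 CPM ± 55.6 with the CELF2 antibody (log2 fold changes 1.80 and 1.85, edgeR FDR 4.73e-05 and 3.45e-05). The cell cycle inhibitor *Cdkn1b* rose over IgG RIP (1.22) but reached 0.42 over input, and *E2f3*, a cell cycle transcription factor, rose over input (1.36) with 0.65 over IgG RIP. The sodium channel mRNA *Scn8a*, a Pumilio target in neurons, had log2 fold changes of 0.50 and 0.49, below the 2-fold minimum. With the other 4 scalings all 6 stayed above 0 and 1 was higher than both controls, but calls over IgG RIP fell to 1 with total counts and with upper quartile factors, and calls over input to 1 with TMM over all genes. Tested against 2-fold itself (glmTreat in edgeR), 1 was called in each comparison, and without CELF2 RIP replicate 1, 2 were higher than both controls.

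The mRNAs of the CCR4-NOT complex split. Of 11 subunits, 3 were called higher and 3 lower over IgG RIP (all genes: 11.1% and 12.4%), and 2 higher and 3 lower over input (16.7% and 12.8%). Those higher than both controls encode catalytic deadenylases, *Cnot6* (1.29 over IgG RIP and 1.29 over input, edgeR FDR 9.64e-05 and 7.80e-05) and *Cnot6l* (1.15 and 1.26, edgeR FDR 0.000378 and 0.000171). *Cnot3*, a regulatory subunit, fell from 44.6 CPM ± 7.33 in input and 47.7 CPM ± 0.872 with IgG to 6.97 CPM ± 1.21 (log2 fold changes -2.77 and -2.68, edgeR FDR 7.41e-06 and 2.43e-06). *Cnot2* fell in both comparisons as well (-1.31 and -1.70), and 7.77% of all genes were called lower than both controls. *Cnot7*, another catalytic deadenylase, had -0.71 over IgG RIP and fell by 1.11 on the log2 scale over input. With TMM over all genes and with total counts no subunit was higher than both controls, and 4 and 3 were lower. Tested against 2-fold itself, none was higher and 1 was lower than both controls. Without CELF2 RIP replicate 2, 1 subunit was higher and 1 lower than both controls.

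Of 7 mRNAs of proteins that act with Pumilio (Nanos and TRIM-NHL proteins), none was called by edgeR in either comparison, although *Trim2* (0.79 and 0.92) and *Trim32* (0.96 and 0.92) had FDR values from 4.67e-05 to 0.000181 below the 2-fold minimum. Among all genes, 11.1% were called higher and 12.4% lower over IgG RIP, and 16.7% and 12.8% over input. Of 6 mRNAs of nuclear proteins known to bind *NORAD*, none was called higher. *Cdc5l*, a splicing factor, fell in both comparisons (-1.56 and -1.33), and the topoisomerase *Top1* fell over IgG RIP (-1.06).

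**Figure D5:**
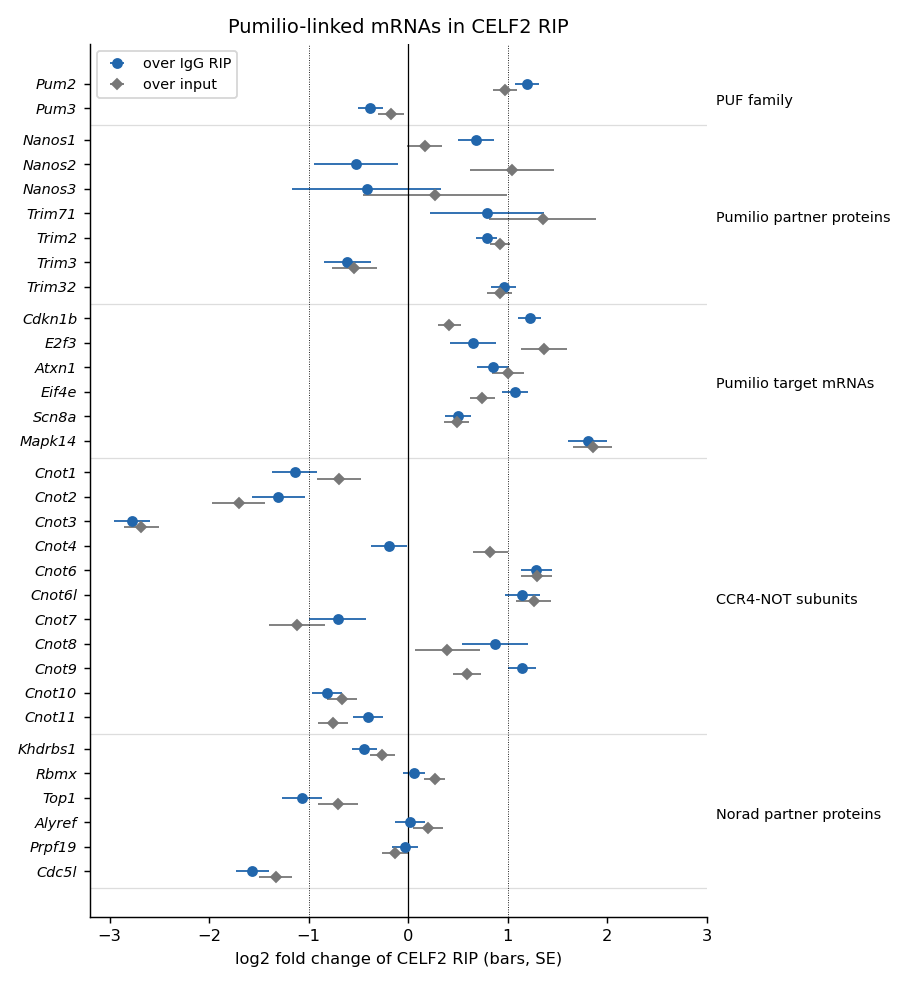
Log2 fold change of CELF2 RIP over IgG RIP (circles) and over input (diamonds) for *Pum2*, *Pum3*, Pumilio partner proteins, known target mRNAs, CCR4-NOT subunits and *Norad* partner proteins, with bars of 1 SE and dotted lines at the 2-fold minimum. The 6 target mRNAs lie to the right of 0 in both comparisons, and CCR4-NOT subunits lie on both sides, from *Cnot3* at -2.77 to *Cnot6* at 1.29.

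Other lncRNAs were grouped in lists. Of 9 nuclear-retained RNAs, 1 was called higher over IgG RIP (*Tug1*, 1.40), 2 were called lower (1 without CELF2 RIP replicate 1 or 3 or without IgG RIP replicate 1 or 2, and 3 without IgG RIP replicate 3) and none was higher than both controls (1 without IgG RIP replicate 1). In this list, 4 were called higher over input and 4 were called higher in IgG RIP than in input, and *Kcnq1ot1* (1.68 and 2.44) and *Neat1* (1.55 and 2.14) were in both counts. Of noncoding genes, 1.34% were called higher over IgG RIP, 25.9% over input, 42.5% in IgG RIP over input and 0.881% over both controls. Over IgG RIP, 12.4% of all genes were called lower. Of 9 matched cytoplasmic RNAs and hosts of small nucleolar RNAs, only *Oip5os1* (Cyrano, known for triggering the decay of a microRNA) was higher than both controls, with 40.2 CPM ± 2.26 in input, 37.9 CPM ± 0.35 with IgG and 92.9 CPM ± 16.7 with the CELF2 antibody, and 4 of the list were called lower over IgG RIP (2 without CELF2 RIP replicate 3, 6 without IgG RIP replicate 2).

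Of 6 other brain lncRNAs, 3 were higher than both controls, as were 0.881% of noncoding genes and 6.3% of all genes. *Peg13*, an imprinted lncRNA, had 744 CPM ± 21.6, 299 CPM ± 26.7 and 309 CPM ± 15.2 in CELF2 RIP, IgG RIP and input (log2 fold changes 1.31 and 1.27, edgeR FDR 1.14e-05 and 8.08e-06). *H19*, also imprinted, had log2 fold changes of 1.73 and 1.21 (edgeR FDR 0.000203 and 0.00145), and *Dlx6os1*, an antisense RNA of the interneuron locus of *Dlx6*, had 1.43 and 1.09. *Pantr1* was lower than both (-1.78 and -3.01). The calls over input rested on the scaling: the number of the 6 higher than both controls was 2 with DESeq2 size factors, 1 with upper quartile factors and 0 with TMM over all genes, with total counts or in the test against 2-fold itself, and *Oip5os1* was called over both, of these other scalings, with DESeq2 size factors only.

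By likeness of pattern, measured as the root mean square difference of centred log2 CPM over the 9 libraries, the 5 genes nearest to *Norad* were *Gna13* (0.095), *Slc36a1* (0.11), *Prrg3* (0.115), *Cmtm6* (0.115) and *Cbx5* (0.124), all protein-coding, beside a median of 1.10 for all genes. *Pum2* ranked 1127 of 18783 genes. The nearest to *Pum2* were *Atp2b4* (0.042), *Colgalt2* (0.054), *Zfp451* (0.063), *Ttc9* (0.063) and *Rybp* (0.064), beside a median of 0.787. These distances share all libraries and are a description. The 5 nearest genes lie below the median for any gene, and *Norad* was chosen on its values in these libraries. Nothing is therefore read from the gap between these distances and the medians.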

How the data were processed

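RNA was measured by RIP-seq of rRNA-depleted, directional libraries. Per the methods, reads were checked with FastQC 0.11.9, trimmed with fastp 0.23.4, cleared of rRNA with Ribodetector 0.3.1 and pseudoaligned with kallisto 0.51.1, and the authors deposited estimated counts for 107384 transcript rows and 9 libraries, not normalized. The methods name an Ensembl transcriptome, while the rows carry RefSeq accessions. All 9 columns were used.

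Rows were matched by accession, ignoring versions, to a RefSeq gene table of GRCm38.p6 (86722 matched), and rRNA and unmatched rows were left out. Counts were summed per gene, rounded and fitted over all 9 libraries with the quasi-likelihood test of edgeR 4.0.16 in R 4.3.3, with TMM factors from protein-coding genes. Calls needed FDR below 0.01 (Benjamini-Hochberg over 18784 genes) and 2-fold. The study's own edgeR version was 4.4.0. Coordinates are spans of the gene table. Levels of different genes were not compared per length. The fit was tested on simulated data. DESeq2 1.42.0, other scalings, no low-count filter, curated rows and leaving out each library were tried as alternatives, and a fit on protein-coding genes alone was added after seeing the data. Deviations from group means were correlated between libraries of the same replicate number over 12294 genes. The correlations were 0.198, 0.150 and 0.140 for CELF2 RIP with input. They were -0.082 to 0.091 for CELF2 RIP with IgG RIP and 0.027 to 0.092 for IgG RIP with input. Libraries of different numbers were not compared, so these values cannot decide which libraries are paired. The methods describe input as an aliquot of the fraction used for the RIPs. The main fit did not pair libraries, and a fit with replicate number as a block was an alternative. The 2 genes and all gene lists were chosen with earlier results of these data known. Named genes are the 2 genes, list members called in any comparison (at most 4 per list) and the 5 nearest patterns per gene. *Malat1*, *Aif1*, *Cx3cr1*, *Csf1r*, *Scn8a*, *Trim2*, *Trim32*, *Cnot7*, *Pum3* and NM_030723.2 were named beyond that rule. So were *Fabp7*, *Sox2*, *Hes5*, *Pax6*, *Rn7s1* and *Rn7s2*. Some genes are not reported here. The ratio within libraries was defined after seeing the data. The *Snhg11* and *Gas5* rows were not matched and are not analysed here.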

Additional observations from a re-analysis of the deposited data

How the results depend on the processing

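Scaling was the choice that moved most results. With TMM over all tested genes, total counts without rRNA and upper quartile factors, genes higher than both controls numbered 387, 410 and 528 in place of 1183, and genes higher than input numbered 1088, 1375 and 1698 in place of 3129. Genes higher than IgG RIP numbered 1116 with total counts and 1233 with upper quartile factors in place of 2085, and 3752 were lower with total counts in place of 2335. Across scalings the share of calls that were higher ran from 22.9% to 47.2% over IgG RIP and from 24.1% to 56.5% over input. IgG RIP against input gave 1328 lower calls with TMM over all genes in place of 805, with 62.5% of calls higher, not 76.2%. It gave 1037 higher calls with protein-coding genes only in place of 2572, of which 1496 were noncoding. A test against 2-fold itself (glmTreat) left 116 genes higher than both controls and did not call *Pum2* over IgG RIP (1.19, FDR 0.132), a use added after seeing the data.

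*Norad* had log2 fold changes of 1.69 over IgG RIP with total counts, of 1.75 and 1.82 over input with TMM over all genes and total counts, and of -0.036 between IgG RIP and input with TMM over all genes. *Pum2* over IgG RIP was at 0.97, 0.88 and 0.93 with TMM over all genes, total counts and upper quartile factors.

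Leaving out 1 library at a time gave 1691 to 2268 genes higher and 1805 to 2774 lower over IgG RIP, 1895 to 4096 higher and 2036 to 2691 lower over input, 1264 to 3636 higher and 574 to 1166 lower between IgG RIP and input, and 791 to 1392 higher than both. Counts over input moved by over 1.5 times without CELF2 RIP replicate 2 (2018) or input replicate 2 (1895), and counts of IgG RIP over input without IgG RIP replicate 1 (1713) or input replicate 1, 2 or 3 (1264, 1555 and 1357). *Norad* stayed at 1.74 to 2.18 and 1.88 to 2.32. *Pum2* stayed at 1.08 to 1.29 over IgG RIP and ran from 0.85 to 1.07 over input, called without CELF2 RIP replicate 1 (1.07) or input replicate 1 (1.0). *Pum2* rows called ran from 0 to 1 over IgG RIP and from 0 to 2 over input.

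For the *Norad* to *Pum2* ratio, leaving out 1 library at a time with all rows gave log2 differences of 0.84 to 1.04 over both controls and 0.66 to 0.87 over IgG RIP. With curated rows only, chosen after seeing the data, they were 0.53 and -0.044 with all libraries and 0.88 and 0.54 without IgG RIP replicate 3. The curated share of *Pum2*, with 1 library left out at a time (also added then), differed by 8.51 to 25.2 points over IgG RIP and by -0.46 to 4.10 over input (-0.42 without CELF2 RIP replicate 1 and -0.46 without input replicate 1), and by -23.9 to -7.20 between IgG RIP and input. Among curated rows the most counted *Pum2* row is another row, and its share differed by -25.5, -9.0 and 16.5 points. The cause of these changes was not tested. With the replicate block the log2 fold changes of *Norad* were 1.98 and 2.13 and of *Pum2* 1.19 and 0.97, and the block changed no call of these genes and no count of all genes by over 1.5 times.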
